A study of Mus musculus with 12 samples.

Results

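The replication and mitosis genes described here are 46 genes chosen by symbol for what their proteins are known to do, 23 in DNA replication and 23 in mitosis, and all 46 had a row among the 55401 genes of the deposited table. The study sequenced poly(A) RNA from bone marrow mesenchymal stem cells (MSCs) of C57BL/6 mice, a purchased cell strain, in 4 groups of 3 libraries, and asked how supernatants of myeloid-derived suppressor cells (MDSCs) alter the response of MSCs to TGF-β1. The groups were MSCs without treatment (control), MSCs with 5 ng/mL TGF-β1, MSCs with the same TGF-β1 dose plus supernatant of monocytic MDSCs (TGF-β1/M-MDSC supernatant), and MSCs with that dose plus supernatant of granulocytic MDSCs (TGF-β1/G-MDSC supernatant). The supernatants came from bone marrow cells induced with GM-CSF and IL-6, sorted and then kept in medium. None of the 4 groups received a supernatant without TGF-β1. Whether the 3 libraries of a group came from separate cultures is not stated, so the p-values measure the spread between these libraries, which may be technical.

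Cells that divide copy their DNA in S phase and separate the copies in mitosis, and each step has its own set of proteins made in time for it. For replication, the MCM ring is loaded on DNA by Cdc6 and Cdt1, turned into an active helicase with Cdc45 and the GINS complex, and followed by polymerases held on DNA by the sliding clamp Pcna. For mitosis, Cdk1 with its cyclins drives entry, Plk1 and the Aurora kinases order the events, and the anaphase-promoting complex with Cdc20 ends them. E2F factors are known to switch on replication genes as cells enter S phase, while many mitosis genes carry a CHR element and CCAAT boxes near their start and are read later in the cycle. TGF-β1 is known to slow division in many cell types and to drive MSCs towards myofibroblasts.

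The start regions of the 2 lists differed in how often they held these letters, and 7 are printed, all of genes with results given further on. The windows of Ccnb2, Cdc20, Ube2c, Mcm5 and Mcm6 were chosen because they hold the letters of their list, and those of Mcm2 and Nusap1 because they do not. Each runs from 200 bases before to 20 after the RefSeq start (GRCm38.p6), in the direction of the gene. Capitals mark GCGGGAA or TTGGCGC (E2F cores), TTTGAA (CHR) and CCAAT, on either strand. The E2F core TTGGCGC read on the other strand can run into a CCAAT box, so those matches are not independent.
Ccnb2 (chr9:70421535-70421754, minus strand): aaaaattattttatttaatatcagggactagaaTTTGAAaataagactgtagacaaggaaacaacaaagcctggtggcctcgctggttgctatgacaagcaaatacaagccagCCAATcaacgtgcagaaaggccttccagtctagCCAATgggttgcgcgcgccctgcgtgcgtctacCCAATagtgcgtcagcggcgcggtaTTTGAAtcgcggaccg
Cdc20 (chr4:118437324-118437543, minus strand): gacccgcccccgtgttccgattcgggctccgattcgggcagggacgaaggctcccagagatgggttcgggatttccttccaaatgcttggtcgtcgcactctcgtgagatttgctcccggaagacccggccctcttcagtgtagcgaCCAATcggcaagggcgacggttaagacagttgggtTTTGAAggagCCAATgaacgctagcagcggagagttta
Ube2c (chr2:164769729-164769948, plus strand): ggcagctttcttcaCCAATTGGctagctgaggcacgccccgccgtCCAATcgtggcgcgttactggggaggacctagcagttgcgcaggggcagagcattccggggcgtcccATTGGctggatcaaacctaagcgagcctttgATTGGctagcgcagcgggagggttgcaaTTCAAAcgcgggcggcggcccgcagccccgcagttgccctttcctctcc
Mcm5 (chr8:75109309-75109528, plus strand): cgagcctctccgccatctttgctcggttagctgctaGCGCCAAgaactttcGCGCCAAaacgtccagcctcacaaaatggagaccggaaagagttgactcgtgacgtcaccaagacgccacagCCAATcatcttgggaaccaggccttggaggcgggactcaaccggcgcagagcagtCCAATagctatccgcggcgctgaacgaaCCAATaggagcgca
Mcm6 (chr1:128359686-128359905, minus strand): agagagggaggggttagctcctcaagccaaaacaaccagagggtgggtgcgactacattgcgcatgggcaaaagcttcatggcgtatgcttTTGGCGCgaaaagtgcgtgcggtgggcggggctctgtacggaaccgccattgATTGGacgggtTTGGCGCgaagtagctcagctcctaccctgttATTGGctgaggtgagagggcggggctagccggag
Mcm2 (chr6:88898761-88898980, minus strand): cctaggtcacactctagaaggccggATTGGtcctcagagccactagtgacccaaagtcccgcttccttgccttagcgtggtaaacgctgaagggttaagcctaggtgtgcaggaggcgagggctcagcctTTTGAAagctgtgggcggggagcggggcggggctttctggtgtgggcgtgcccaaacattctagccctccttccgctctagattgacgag
Nusap1 (chr2:119618098-119618317, plus strand): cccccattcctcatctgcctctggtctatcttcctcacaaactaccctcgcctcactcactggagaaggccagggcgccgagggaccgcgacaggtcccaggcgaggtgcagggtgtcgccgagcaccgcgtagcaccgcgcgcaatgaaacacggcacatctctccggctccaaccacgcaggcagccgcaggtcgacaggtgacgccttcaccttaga

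Ccnb2, which encodes cyclin B2, held 3 CCAAT boxes spaced 33 bases apart and 2 matches to the CHR letters, one that begins at -167 and one just past the start. Mcm5 and Mcm6, subunits of the same helicase ring, each held 2 copies of the E2F core TTGGCGC and no CHR element. Mcm2, of the same ring, held the CHR letters and no E2F core. Nusap1, the member with the largest fall with TGF-β1, and Birc5, which also fell, held none of these letters. A RefSeq window of 250 bases before to 50 after the start was given for 35 of the 46 genes, 18 replication and 17 mitosis genes. An E2F core of either kind was in 61.1% of the replication windows, 17.6% of the mitosis windows and 7.84% of the 26742 windows of all genes. The CHR letters were in 11.1% of the replication windows, 70.6% of the mitosis windows and 20.1% of all windows, and CCAAT was in 66.7%, 88.2% and 41.0%. Among mitosis genes, the CHR letters were in 5 of the 7 windows of genes that fell with TGF-β1 and in 7 of the 10 windows of the others. A match is a description of these letters and no evidence of a factor at work.

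All 46 genes were expressed in every group, and each passed the filter for testing, which kept 12016 genes (21.7%) at 1 FPKM or more in at least 3 of the 12 libraries. FPKM scales fragments by exon length and by the mapped reads of a library, so it allows levels of different genes to be compared. Pcna was the most abundant member, with group means from 145 to 168 FPKM. Mcm3, the ribonucleotide reductase subunit Rrm2, Mcm5, Plk1 and Cdc20 followed, with means over all libraries of 113, 98.4, 83.1, 80.5 and 78.1 FPKM. The lowest were Cenpf, a large kinetochore protein, at 3.46 FPKM, Cdc25c, the phosphatase that activates Cdk1, at 5.79 FPKM, and Cdc6 at 6.61 FPKM. Thus the loading factor Cdc6 was listed at a small part of the level of the MCM subunits it loads, whose means lay between 45.5 FPKM for Mcm6 and 113 FPKM for Mcm3. Bulk libraries give a mean over all cells, and fewer cells in S phase or mitosis cannot be told apart from less RNA in each such cell.

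The libraries held between 73977669 and 84565450 counts, and TMM scaling factors lay between 0.978 and 1.03. Of the markers fixed for MSCs, Cd44 (38.5 to 65.3 FPKM) and Itgb1 (247 to 394 FPKM) were high in all groups, and Eng stayed under 1 FPKM. Ly6a was at 241 to 251 FPKM in control, 13.0 to 18.8 with TGF-β1, 82.6 to 103 with M-MDSC and 63.3 to 69.2 with G-MDSC supernatant, and Nt5e was at 0.32 to 0.50, 0.96 to 1.06, 1.22 to 1.38 and 1.62 to 1.66 FPKM. Pdgfra was at 13.2 to 15.5 FPKM in control, 4.58 to 5.33 with TGF-β1, 5.50 to 5.83 with M-MDSC and 5.98 to 6.93 with G-MDSC supernatant, and Thy1 was at 3.94 to 5.27, 2.03 to 2.42, 1.46 to 2.04 and 1.34 to 1.81 FPKM. These markers moved with the groups, and their part in the results was not tested. Kit had no count in the control and TGF-β1 libraries, and at most 4 with M-MDSC and 10 with G-MDSC supernatant. Pecam1 had 40 to 53 counts in control, 56 to 66 with TGF-β1, 58 to 73 with M-MDSC and 75 to 120 with G-MDSC supernatant. Of 14 myeloid markers, 5 passed the filter, most of their summed level was Cd14, and Mpo and Elane had no count in any library. Folds and tests were taken from the counts with TMM scaling, which held the median of all genes near 0, whereas FPKM carries the library totals, on which the median gene was lower with TGF-β1 by a log2 value of -0.0577. FPKM values therefore look slightly lower in TGF-β1 libraries than the fitted folds do.

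With TGF-β1 alone, 10 of 23 mitosis genes fell and 1 rose, and 4 of 23 replication genes fell and 1 rose, in edgeR's quasi-likelihood test at a Benjamini-Hochberg adjusted p under 0.05 over all 12016 genes. Of all genes tested 17.9% fell and 16.1% rose (34.0% either way), so the share of replication genes that fell (17.4%) was near that background, while the share of mitosis genes that fell was 43.5%. All changes were small. No member reached the study's own fold threshold of 2 or 0.5 at an unadjusted p under 0.05, a threshold that 6.74% of all genes reached. The median log2 fold change was -0.12 for the replication genes and -0.10 for the mitosis genes against 0.000478 for all genes, and 20 and 17 of the 23 genes lay below 0. The 95% interval of the log2 fold change lay inside ±0.5 for 22 replication and 21 mitosis genes. In FPKM, 14 of 23 genes in each list were lower in every TGF-β1 library than in every control library, which 30.0% of all genes were, and 0 were higher throughout, against 16.6% of all genes. With library totals in place of TMM, 11 replication and 12 mitosis genes fell and none rose, while 22.7% of all genes fell and 12.3% rose. A member that did not pass is not shown to be unchanged, since changes of this size were seldom called in simulated counts. The count of replication genes that passed was 5, and it dropped to 3 without control replicate 3 or without TGF-β1 replicate 1.

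**Figure D1:**
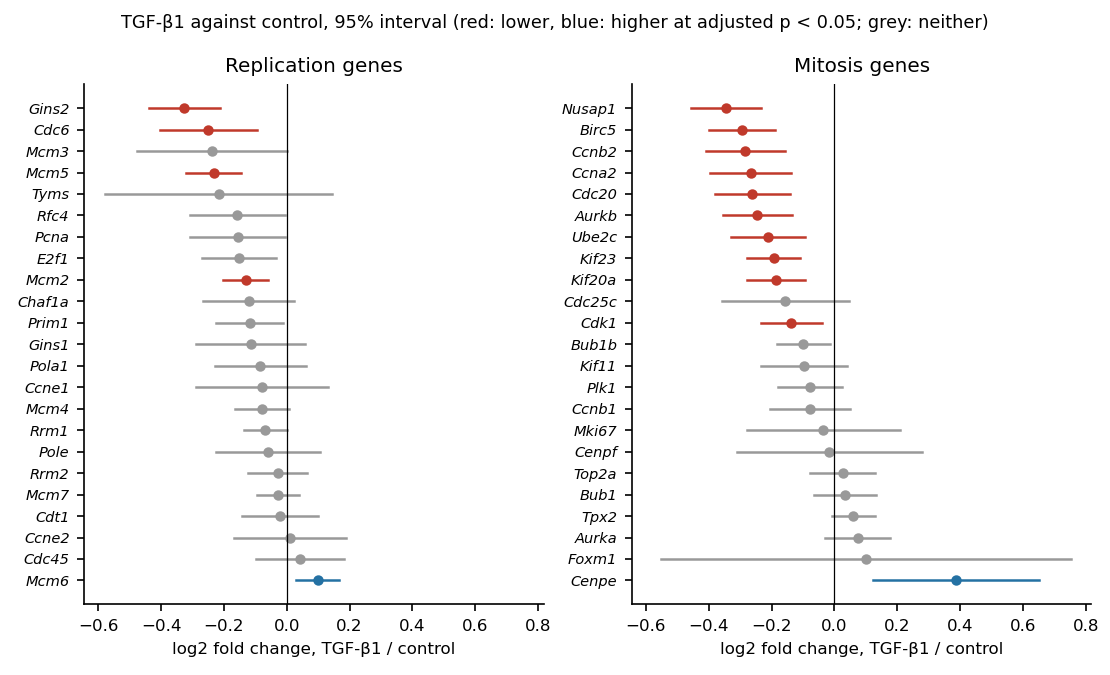
Log2 fold change of each member in TGF-β1-treated against control MSCs (horizontal axis), with its 95% interval; red genes fell, blue genes rose and grey genes did not pass an adjusted p under 0.05 (edgeR, 3 libraries a group). The 10 mitosis genes that fell lie between -0.35 and -0.14, and the intervals of Foxm1 and Tyms are the widest of their lists.

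The replication genes that passed with TGF-β1 were 4 of the 9 helicase genes and 1 of the 2 loading genes, and no difference between roles was tested. The median log2 fold change was -0.12 for the helicase genes and -0.12 for the 5 genes of the polymerases, primase and clamp, all 5 of which lay below 0. Gins2 (chr8:120578633-120589304), a subunit of the GINS complex, measured 16.7, 17.7 and 17.0 FPKM in the control libraries and 12.6, 13.2 and 13.6 FPKM with TGF-β1. The groups did not overlap, and the log2 fold change was -0.33 ± 0.051 (SE, edgeR adjusted p = 0.000533). Gins2 overlaps the coding gene Gse1 on the opposite strand, and whether the counting used strand is not given in the sources used here, so its value is uncertain.

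Mcm5 (chr8:75109569-75128439) measured 91.1, 96.5 and 87.3 FPKM in control and 72.9, 75.0 and 77.0 FPKM with TGF-β1. Every control library was above every TGF-β1 library, and the log2 fold change was -0.23 ± 0.040 (edgeR adjusted p = 0.000985). Cdc6 (chr11:98907801-98923940), which brings the MCM ring to replication origins, measured 7.35, 6.51 and 7.25 FPKM in control and 5.43, 5.75 and 5.89 FPKM with TGF-β1. The groups were again separate, with a log2 fold change of -0.25 ± 0.069 (edgeR adjusted p = 0.0172). The Cdc6 call was lost without control replicate 3 (-0.23) and without TGF-β1 replicate 1 (-0.22).

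Mcm2 (chr6:88883474-88898780) measured 48.8, 51.1 and 49.1 FPKM in control and 42.9, 45.0 and 42.9 FPKM with TGF-β1. The groups did not overlap and the log2 fold change was -0.13 ± 0.033 (edgeR adjusted p = 0.00986), and it did not pass when only the 2 groups were fitted (-0.13). Mcm6 (chr1:128331590-128359664) went the other way within the same ring. It measured 43.2, 41.3 and 41.5 FPKM in control and 42.9, 43.6 and 43.2 FPKM with TGF-β1, which overlap, and the fitted log2 fold change was 0.10 ± 0.030 (edgeR adjusted p = 0.0282). This call is fragile, since it was lost with library totals (0.04), with no filter on low values (0.10), when only the 2 groups were fitted (0.10), without control replicate 2 (0.08), without control replicate 3 (0.09) and without any TGF-β1 replicate (0.09 to 0.10). The remaining ring subunits Mcm3 (-0.24), Mcm4 (-0.08) and Mcm7 (-0.03) did not pass, and the 3 Mcm3 control libraries ranged widely, from 115 to 145 FPKM.

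No member passed among the 5 genes of the polymerases, primase and clamp, the 3 of nucleotide supply, or the 3 regulators of entry into S phase. Pcna (chr2:132249162-132253314), the sliding clamp and a common proliferation marker, measured 172, 171 and 161 FPKM in control and 133, 139 and 162 FPKM with TGF-β1. TGF-β1 replicate 3 lay among the control libraries and the other two lay below them. The log2 fold change was -0.16 ± 0.068 (edgeR adjusted p = 0.106), and Pcna passed only without TGF-β1 replicate 3 (-0.25) or with scaling by library totals (-0.22). Its pseudogene Pcna-ps2 held 128 to 467 counts against 28693 to 38249 for Pcna.

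E2f1 (chr2:154559407-154569892), the transcription factor at the head of the S phase program, measured 21.5, 21.8 and 21.1 FPKM in control and 18.6, 18.4 and 18.7 FPKM with TGF-β1. The groups were separate and tight, yet the log2 fold change of -0.15 ± 0.054 missed the threshold (edgeR adjusted p = 0.0513). E2f1 passed in DESeq2 (-0.15) and with library totals (-0.21). The cyclin E genes Ccne1 (-0.08) and Ccne2 (0.01) and the ribonucleotide reductase genes Rrm1 (-0.07) and Rrm2 (-0.03) did not pass. Tyms, thymidylate synthase, had a log2 fold change of -0.22 with an interval from -0.58 to 0.14. The chromatin assembly factor Chaf1a had -0.12 (edgeR adjusted p = 0.191).

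Among the mitosis genes, falls were found in every role. Nusap1 (chr2:119618298-119650160), a protein that binds spindle microtubules, measured 18.2, 16.9 and 18.5 FPKM in control and 12.9, 14.3 and 13.3 FPKM with TGF-β1. All control libraries were higher, and the log2 fold change was -0.35 ± 0.050 (edgeR adjusted p = 0.000326). This was the largest fall among the 46 genes. Nusap1 overlaps Oip5 on the opposite strand, as Cdc20, Ccna2 and Kif20a overlap other coding genes, so their values carry the same uncertainty as that of Gins2.

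Birc5 (chr11:117849251-117855743), survivin, which belongs to the complex that guides Aurora B, measured 29.0, 29.1 and 28.5 FPKM in control and 21.7, 23.1 and 22.9 FPKM with TGF-β1. The groups were far apart relative to their spread, and the log2 fold change was -0.29 ± 0.047 (edgeR adjusted p = 0.000608). The kinase it guides, Aurkb, fell by 0.25 on the log2 scale. Ccnb2 (chr9:70407692-70421547) measured 53.0, 54.1 and 56.7 FPKM in control and 39.1, 44.4 and 45.6 FPKM with TGF-β1. These groups did not overlap either, and the log2 fold change was -0.28 ± 0.057 (edgeR adjusted p = 0.00269).

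Of its relatives, cyclin A2 (Ccna2) fell by 0.27 on the log2 scale and Cdk1 by 0.14, whereas Ccnb1 had a log2 fold change of -0.08 and did not pass (edgeR adjusted p = 0.346), and no difference between these genes was tested. The Cdk1 call was lost with other filters (-0.13), when only the 2 groups were fitted (-0.14), with a replicate block (-0.14), and without control replicate 2 (-0.15), control replicate 3 (-0.13), TGF-β1 replicate 1 (-0.10) or TGF-β1 replicate 2 (-0.15). Cdc20 (-0.26) and Ube2c (-0.21), the activator and the ubiquitin-conjugating enzyme of the anaphase-promoting complex, both fell. The spindle checkpoint genes Bub1 (0.03) and Bub1b (-0.10) did not pass. Of the motor proteins, Kif20a and Kif23, which act at the midzone in late mitosis, each fell by 0.19 on the log2 scale, and Kif11, which separates the spindle poles, had -0.10 and did not pass.

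Cenpe (chr3:135212537-135273611), the kinetochore motor, was the exception that rose. It measured 11.8, 8.63 and 11.0 FPKM in control and 14.3, 13.8 and 11.3 FPKM with TGF-β1. The groups overlapped at TGF-β1 replicate 3, and the log2 fold change was 0.39 ± 0.12 (edgeR adjusted p = 0.0278). The call was lost with library totals (0.33), when only the 2 groups were fitted (0.39) and without control replicate 2 (0.26), TGF-β1 replicate 1 (0.32) or TGF-β1 replicate 2 (0.35).

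Mki67 (chr7:135689784-135716361), which encodes the proliferation marker Ki-67, measured 44.5, 35.2 and 41.9 FPKM in control and 42.3, 39.4 and 32.4 FPKM with TGF-β1. The groups overlapped throughout. The log2 fold change was -0.04, with a 95% interval from -0.28 to 0.21 (edgeR adjusted p = 0.843), and was above 0 without control replicate 1 (0.02) or TGF-β1 replicate 3 (0.06). Foxm1 (chr6:128362967-128376146), the factor that drives many mitosis genes, measured 37.3, 25.1 and 18.7 FPKM in control and 25.2, 26.1 and 32.2 FPKM with TGF-β1. Its control libraries spanned all its TGF-β1 libraries, and the log2 fold change of 0.10 had an interval from -0.55 to 0.75 (edgeR adjusted p = 0.834) and was below 0 without control replicate 3 (-0.11) or TGF-β1 replicate 3 (-0.03). Plk1 (-0.08), Aurka (0.07), Top2a (0.03) and Tpx2 (0.06) did not pass.

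**Figure D2:**
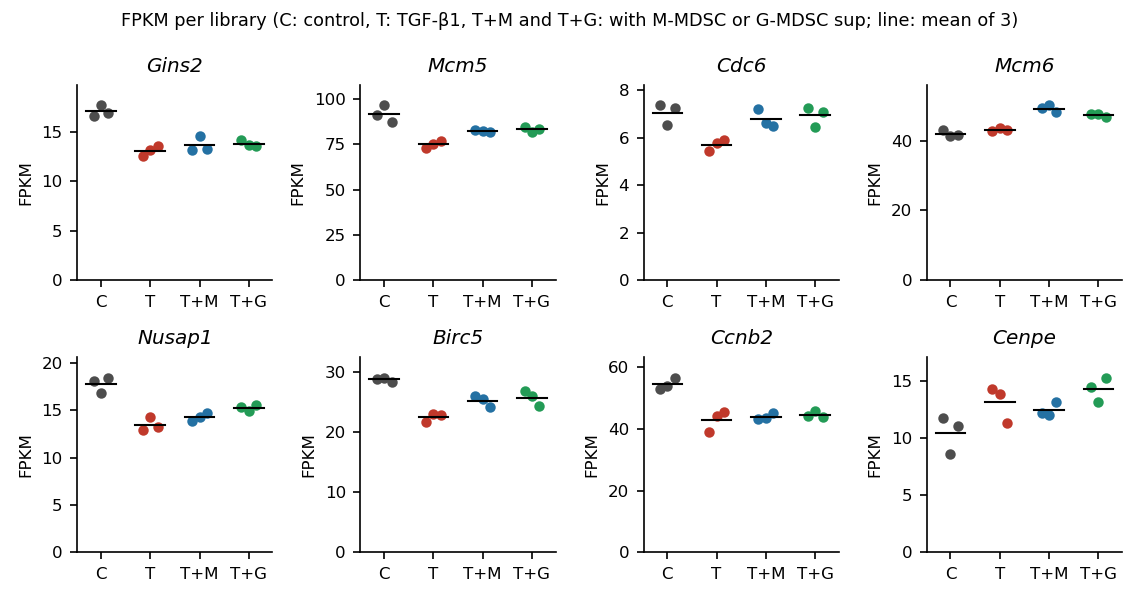
FPKM (vertical axis, from 0) of 4 replication genes (top) and 4 mitosis genes (bottom) in each of the 12 libraries, with a line at the mean of 3. In Gins2, Mcm5, Nusap1, Birc5 and Ccnb2 the 9 libraries with TGF-β1 sit below all 3 control libraries. In Mcm6 the 6 libraries with a supernatant sit above the other 6.

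Of 38 other replication genes, which include further GINS, polymerase, origin and single-strand binding genes, 16 fell (42.1%) and 2 rose (5.26%) with TGF-β1, beside 17.9% and 16.1% of all genes, and the others did not pass. Their median log2 fold change was -0.17. The share that fell was thus above that among the 23 replication members (17.4%), which lay near the share of all genes. The difference between the lists was not tested, and both were chosen with earlier results of these data known. Of 45 other mitosis genes 15 fell (33.3%) and 1 rose (2.22%), with a median of -0.11, and the others did not pass. Rpa1, which binds single-stranded DNA, went from 51.4 ± 1.69 to 26.2 ± 5.81 FPKM (SD, n = 3), a log2 fold change of -0.91 ± 0.13 (edgeR adjusted p = 0.000224). Fen1, the flap endonuclease, had a log2 fold change of -0.98 but a control SD of 11.8 FPKM around 29.6 FPKM, and did not pass (edgeR adjusted p = 0.120). E2f2 rose by a log2 value of 0.55 at a level near 1 FPKM. The Cdk1 regulators Cdc25b and Wee1, a phosphatase and the kinase that opposes it, fell by 0.72 and 0.48 on the log2 scale, and the lamin gene Lmnb1 fell by 0.41.

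When M-MDSC supernatant was added to TGF-β1, 1 replication gene rose, Mcm6, and no mitosis gene passed. Of all genes, 2.83% rose and 1.95% fell in this comparison (4.78% either way). At an unadjusted p under 0.05 there were 6 replication and 4 mitosis genes (16.7% of all genes), and DESeq2 called 2 and 1, all higher, while it called 3.92% of all genes higher. Mcm6 measured 49.4, 50.1 and 48.2 FPKM with M-MDSC supernatant, all above the TGF-β1 libraries given earlier. The log2 fold change was 0.17 ± 0.030 (edgeR adjusted p = 0.00994), and it did not pass when only the 2 groups were fitted (0.18). Cdc6 measured 7.22, 6.63 and 6.47 FPKM, back within the range of the control libraries in 2 of 3 cases. Its log2 fold change over TGF-β1 was 0.23, with a 95% interval from 0.076 to 0.38 (edgeR adjusted p = 0.109).

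Mcm5 measured 83.1, 82.2 and 81.8 FPKM with M-MDSC supernatant, between the TGF-β1 and the control libraries, with a log2 fold change of 0.11 over TGF-β1 (edgeR adjusted p = 0.171). The mitosis genes with the smallest p were Plk1, Aurka and Birc5. Plk1 measured 71.5, 75.3 and 74.5 FPKM with TGF-β1 and 86.1, 85.8 and 80.9 FPKM with the supernatant, without overlap, and had a log2 fold change of 0.17 (edgeR adjusted p = 0.0706). Aurka measured 48.1, 51.0 and 49.9 FPKM with TGF-β1 and 56.5, 57.0 and 53.5 FPKM with the supernatant, a log2 fold change of 0.14 (edgeR adjusted p = 0.148). Both kinases were separate between the groups in FPKM and did not pass over all genes. Birc5 measured 26.0, 25.6 and 24.2 FPKM, above TGF-β1 and below control, with a log2 fold change of 0.14 (edgeR adjusted p = 0.157).

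The median log2 fold change was 0.079 for the replication genes and 0.021 for the mitosis genes against -0.0133 for all genes, and 21 and 15 of 23 lay above 0. In FPKM, 9 replication and 7 mitosis genes were higher in every M-MDSC supernatant library than in every TGF-β1 library, which 13.4% of all genes were, and none was lower throughout, against 10.6% of all genes. Without TGF-β1 replicate 1 the medians were 0.052 and 0.0028, and without TGF-β1 replicate 2 or 3 that of the mitosis genes was 0.035 or 0.043. The 9 helicase genes all lay above 0, between 0.031 and 0.17. Pcna measured 146, 148 and 161 FPKM with M-MDSC supernatant and E2f1 20.7, 18.0 and 18.0 FPKM, and both overlapped the TGF-β1 libraries. Foxm1 measured 32.7, 32.8 and 31.0 FPKM, also overlapping. Mki67 measured 36.7, 33.6 and 36.8 FPKM, and Cenpf and Cenpe had log2 fold changes of -0.12 and -0.10. The 5 spindle and midzone genes lay between -0.047 and 0.061.

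When G-MDSC supernatant was added to TGF-β1, no member passed in edgeR, while 5.56% of all genes did (3.10% higher, 2.46% lower). At an unadjusted p under 0.05 there were 7 replication and 7 mitosis genes (17.2% of all genes), and DESeq2 called 3 and 1, all higher, while it called 4.58% of all genes higher. The DESeq2 calls were Cdc6 (0.27), Mcm6 (0.12), Rrm2 (0.17) and Birc5 (0.17). With library totals, edgeR called 4 replication genes and 1 mitosis gene higher, and 3.71% of all genes. Rrm2, the regulated subunit of ribonucleotide reductase, measured 88.4, 94.2 and 93.0 FPKM with TGF-β1 and 109, 104 and 100 FPKM with the supernatant. The groups did not overlap, with a log2 fold change of 0.16 and a 95% interval from 0.065 to 0.25 (edgeR adjusted p = 0.0576).

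Cdc6 measured 7.26, 6.46 and 7.07 FPKM with G-MDSC supernatant, within the range of the control libraries for 2 of the 3. Its log2 fold change over TGF-β1 was 0.26 (edgeR adjusted p = 0.0581). Mcm6 measured 47.8, 47.8 and 47.0 FPKM, with a log2 fold change of 0.11 (edgeR adjusted p = 0.0657). Among the mitosis genes, Birc5 measured 26.9, 26.1 and 24.4 FPKM, a log2 fold change of 0.16 (edgeR adjusted p = 0.0781). Nusap1 measured 15.4, 15.0 and 15.6 FPKM, between TGF-β1 and control, also with 0.16 (edgeR adjusted p = 0.119). Plk1 measured 84.0, 83.6 and 80.7 FPKM, a log2 fold change of 0.14 (edgeR adjusted p = 0.128).

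Without G-MDSC supernatant replicate 2, Cdc6 passed (0.31), and without replicate 3, Rrm2 (0.19) and Birc5 (0.20) passed. The median log2 fold change was 0.083 for the replication genes and 0.086 for the mitosis genes against -0.0144 for all genes, and 20 and 22 of 23 lay above 0. Foxm1 was the mitosis gene below 0, with libraries at 24.0, 14.8 and 35.0 FPKM. In FPKM, 13 replication and 12 mitosis genes were higher in every G-MDSC supernatant library than in every TGF-β1 library, a property of 13.2% of all genes, and none was lower throughout, against 9.55%. The median of the replication genes was 0.13 without TGF-β1 replicate 3. With G-MDSC supernatant Pcna measured 154, 151 and 145 FPKM, which overlaps TGF-β1, and E2f1 measured 18.8, 19.0 and 19.2 FPKM, just above TGF-β1 and below control. Mki67 measured 40.8, 37.9 and 44.5 FPKM, overlapping both TGF-β1 and control.

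**Figure D3:**
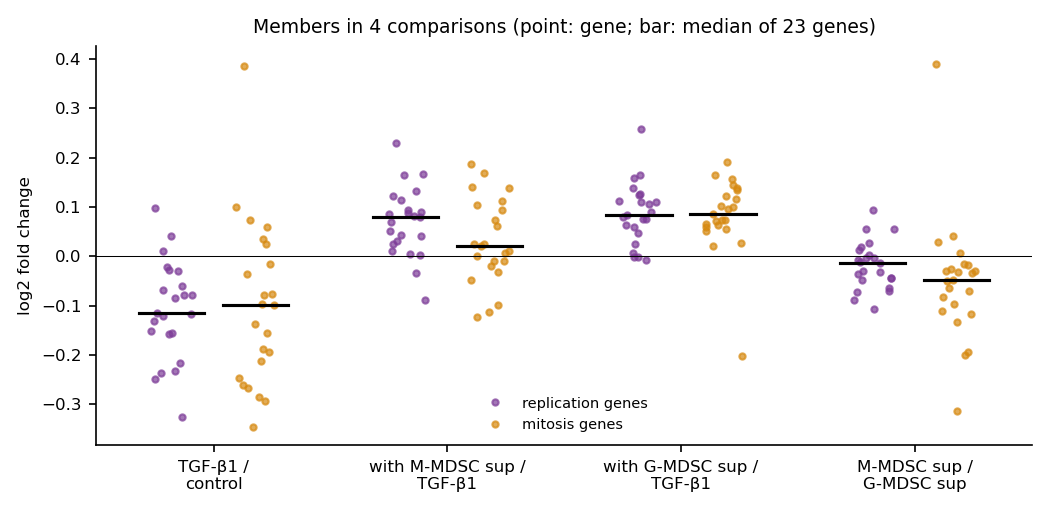
Log2 fold change (vertical axis) of the 46 members in 4 comparisons, each point a gene and each black bar the median of 23 genes of a list. The medians are -0.12 and -0.10 for TGF-β1 against control, 0.079 and 0.021 for M-MDSC supernatant, 0.083 and 0.086 for G-MDSC supernatant, and -0.013 and -0.048 between the supernatants; the first 3 comparisons share the TGF-β1 libraries.

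The supernatant comparisons and the comparison with control share the 3 TGF-β1 libraries, so they are not independent of each other. TGF-β1 replicate 1 was the lowest of the 3 for Gins2, Mcm5, Cdc6, Pcna, Nusap1, Birc5 and Ccnb2. Each supernatant group was therefore also compared with control. With M-MDSC supernatant 3 replication genes (Mcm5, Gins2 and Rrm1) were lower than control and 1, Mcm6, higher, and 9 mitosis genes were lower and 2, Aurka and Bub1, higher, while 18.9% of all genes fell and 16.4% rose. With G-MDSC supernatant 1 replication gene, Gins2, was lower and 2, Mcm6 and Rrm2, were higher, and 5 mitosis genes were lower and 4 higher, while 18.4% of all genes fell and 16.4% rose. The 5 were Ccna2, Ccnb2, Cdc20, Kif23 and Nusap1, and the 4 were Aurka, Bub1, Cenpe and Tpx2.

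Gins2 stayed low in all groups with TGF-β1. It measured 13.2, 14.6 and 13.3 FPKM with M-MDSC supernatant and 14.2, 13.7 and 13.6 FPKM with G-MDSC supernatant, and its log2 fold change against control was -0.28 in each (edgeR adjusted p = 0.00131 and 0.00157). Ccnb2 likewise measured 43.4, 43.7 and 45.1 FPKM with M-MDSC and 44.4, 46 and 43.8 FPKM with G-MDSC supernatant, at log2 fold changes of -0.27 and -0.26 against control. Cdc6 did not show this pattern, at -0.02 and 0.01 against control. Mcm6 was above control in both, by log2 values of 0.26 (edgeR adjusted p = 5.7e-05) and 0.21 (edgeR adjusted p = 0.000323).

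On the FPKM scale the group means of log2(FPKM + 1) had the same order for replication genes, mitosis genes and all genes tested. Over all genes the mean was 3.17 ± 0.0047 in control, 3.11 ± 0.0067 with TGF-β1, 3.14 ± 0.0076 with M-MDSC and 3.14 ± 0.0059 with G-MDSC supernatant (SD, n = 3). For the replication genes it was 4.74 ± 0.023 in control, 4.58 ± 0.027 with TGF-β1, 4.66 ± 0.021 with M-MDSC and 4.69 ± 0.014 with G-MDSC supernatant (SD, n = 3). For the mitosis genes it was 5.03 ± 0.041, 4.88 ± 0.028, 4.93 ± 0.0070 and 4.98 ± 0.045. The TGF-β1 libraries were below all others for both lists, as they were over all genes (3.1157 or less against 3.1301 or more), and the M-MDSC and G-MDSC libraries overlapped for both. With TMM scaling both lists kept this order of the group means, but the libraries of the groups overlapped for mitosis genes. There the highest TGF-β1 library (7.2111 on the log2 CPM scale) lay just above the highest M-MDSC library (7.2108). It also lay above G-MDSC supernatant replicate 2 (7.193). All genes did not keep it, since their TMM-scaled means were 4.65 with G-MDSC supernatant, 4.64 with M-MDSC supernatant, 4.63 in control and 4.60 with TGF-β1. Control was thus highest for both lists and below the supernatant groups over all genes on this scale, and this difference was not tested.

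**Figure D4:**
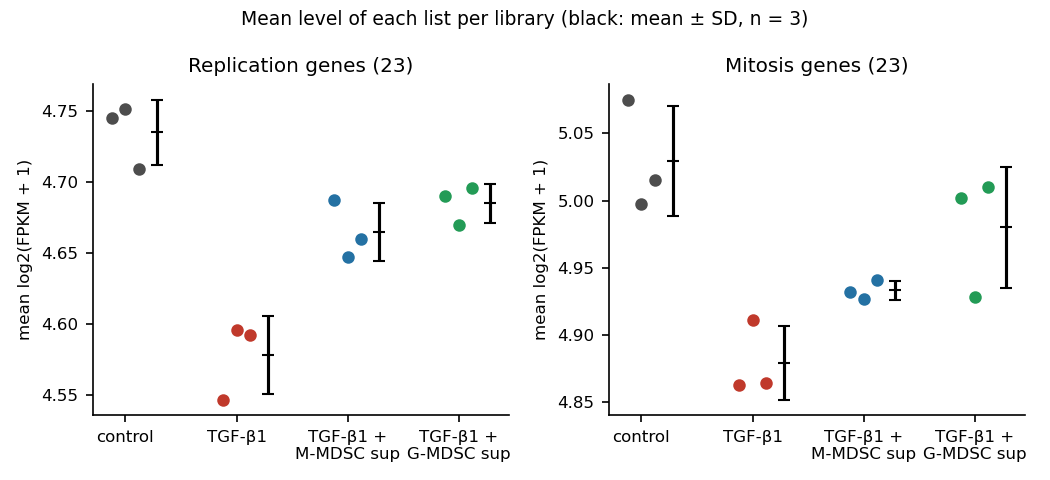
Mean of log2(FPKM + 1) over the 23 replication genes (left) and the 23 mitosis genes (right) in each library (points), with the mean and SD of each group in black; the vertical axes do not start at 0. TGF-β1 libraries are lowest in both panels, as over all genes, and G-MDSC supernatant replicate 2 lies below the other 2 of its group for mitosis genes.

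The supernatants were not shown to differ from each other in any member. Between TGF-β1/M-MDSC and TGF-β1/G-MDSC supernatant no member passed in edgeR or DESeq2, while 0.125% of all genes passed in edgeR and 1.01% in DESeq2. At an unadjusted p under 0.05 there were 0 replication and 4 mitosis genes, and 6.33% of all genes. The smallest p among them belonged to Kif20a, at 68.7, 61.8 and 65.7 FPKM with M-MDSC and 73.3, 71.0 and 71.5 FPKM with G-MDSC supernatant. Those libraries did not overlap, and the log2 fold change was -0.13 with an interval from -0.23 to -0.041 (edgeR adjusted p = 0.508). Kif23 measured 12.8, 12.9 and 12.9 against 14.1, 13.6 and 14.1 FPKM, a log2 fold change of -0.11 (edgeR adjusted p = 0.626).

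Cenpf measured 3.00, 3.03 and 3.30 FPKM with M-MDSC and 3.71, 3.63 and 4.29 FPKM with G-MDSC supernatant, a log2 fold change of -0.31 with an interval from -0.61 to -0.020 (edgeR adjusted p = 0.765). In all, 6 mitosis genes and 1 replication gene were lower in every M-MDSC than in every G-MDSC library, which 6.03% of all genes were, and 1 replication gene, Mcm6, was higher throughout, as 5.97% of all genes were. The replication genes with the smallest p were Mcm6 (0.05), Rfc4 (-0.11) and Rrm2 (-0.06), with adjusted p between 0.873 and 0.911 in edgeR. Rfc4, a subunit of the clamp loader, measured 9.59, 11.1 and 10.9 FPKM with M-MDSC and 11.2, 11.5 and 11.4 FPKM with G-MDSC supernatant, without overlap. Rrm2 measured 103, 96.2 and 99.8 FPKM with M-MDSC supernatant, which overlap the G-MDSC values given earlier. The median log2 fold change was -0.013 for the replication genes and -0.048 for the mitosis genes, and that of the replication genes was -0.034 without M-MDSC supernatant replicate 1, -0.0083 without its replicate 3 and -0.0049 without G-MDSC supernatant replicate 1. The interval of every replication gene lay inside ±0.5, as did those of 21 mitosis genes.

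Some myeloid markers moved with the supernatants and others did not, and their part in the results was not tested. Cd14 was at 22.7 to 23.5 FPKM in control, 12.4 to 14.6 with TGF-β1, 18.5 to 21.4 with M-MDSC and 21.8 to 23.6 with G-MDSC supernatant. The summed level of the other 13 myeloid markers was 4.26 to 4.51 FPKM in control, 1.19 to 1.35 with TGF-β1, 2.05 to 4.52 with M-MDSC and 3.41 to 7.52 with G-MDSC supernatant. Lyz2 went from at most 0.094 FPKM with TGF-β1 to 0.65 FPKM or more in each library with a supernatant. S100a9 had no count in control and TGF-β1 libraries and reached 0.98 FPKM with M-MDSC and 3.4 with G-MDSC supernatant. Ly6g and Ly6c2 were at 1.74 to 1.89 and 1.59 to 1.83 FPKM in control. They were at most 0.093 and 0.083 with TGF-β1, 0.138 and 0.196 with M-MDSC, and 0.199 and 0.308 FPKM with G-MDSC supernatant. Csf1r was at 0.52 to 0.78 FPKM in control, 1.01 to 1.06 with TGF-β1, 0.95 to 1.24 with M-MDSC and 0.96 to 1.34 with G-MDSC supernatant. Ptprc, which encodes the pan-leukocyte protein CD45, was at most 0.016 FPKM in any library, and Mpo and Elane were at 0 counts.

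Members differed in how far the libraries of a group spread, and long genes spread most. The coefficient of variation within groups was 25.7% for Foxm1, 15.6% for Tyms, 12.3% for Cenpf, 10.6% for Mcm3, 10.4% for Cenpe and 10.3% for Mki67, and as low as 1.64% for Mcm7. Its median was 5.93% for the 13 members with 5372 bases of exon or more, 3.61% for the 24 of middle length and 4.51% for the 9 short ones. Long members were above their group mean in control replicate 1 (median log2 deviation 0.088) and G-MDSC replicate 3 (0.093) and below it in control replicate 2 (-0.050), TGF-β1 replicate 3 (-0.052) and G-MDSC replicate 2 (-0.097). The 4002 long genes among all genes tested deviated in the same directions in those libraries (0.050, 0.060, -0.035, -0.034 and -0.040).

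Mki67, Cenpe and Cenpf were the lowest of their groups in control replicate 2 and TGF-β1 replicate 3 and the highest in G-MDSC replicate 3, as long genes at large were. The long members with the widest spread did not follow this in every library. Tyms was highest in control replicate 2 (13.7 FPKM) and Foxm1 in TGF-β1 replicate 3 (32.2 FPKM), where long genes at large lay low. Between groups, the median log2 fold change with TGF-β1 was 0.038 for all long genes and -0.023 for all short ones. It was -0.068 for the 13 long members, of which 2 fell, and -0.16 for the 9 short members of at most 2702 bases, of which 3 fell. What length contributes to the folds of Cenpe and Mki67 was not tested.

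**Figure D5:**
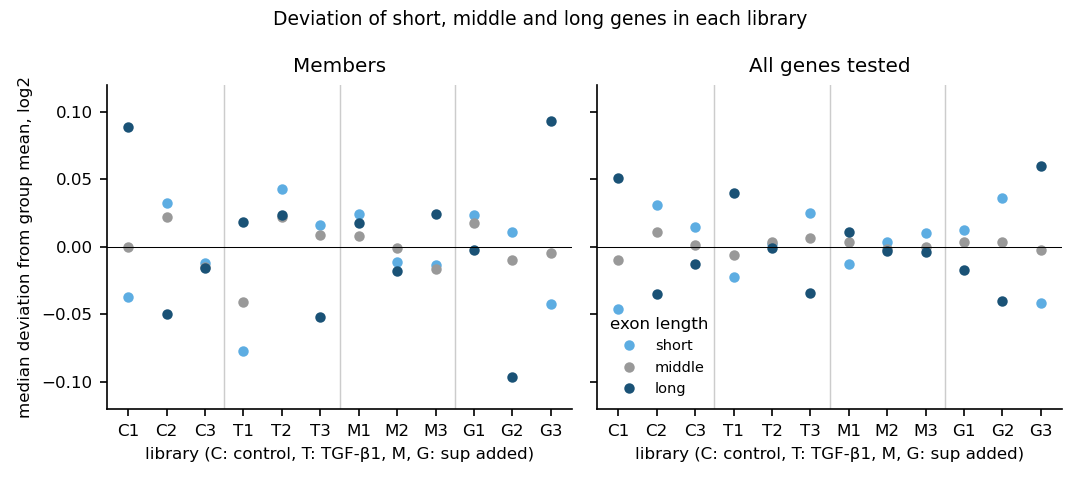
Median log2 deviation from the group mean (vertical axis) of short, middle and long genes in each of the 12 libraries, for the 46 members (left) and all genes tested with a known length (right). Long members are highest in control replicate 1 and G-MDSC replicate 3 and lowest in G-MDSC replicate 2, where long genes at large also lie at the extremes.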

How the data were processed

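Poly(A) RNA of 12 libraries was sequenced with a strand-marking kit. Per the submitters' processing notes the reads were trimmed with cutadapt 1.9, aligned with HISAT2 2.0.4 and assembled with StringTie 1.3.4d, and the gene coordinates of the table are those of GRCm38. The authors deposited FPKM values, which scale fragments by exon length and mapped reads. They also deposited a count per gene and library, and the counting tool is not given in the sources used here. Multiples of 4 were in excess at the low end, with 44.3% of nonzero values no higher than 12 being 4, 8 or 12.

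The 46 genes, the other gene lists and the tests were chosen with earlier results of these data known. Genes with 1 FPKM or more in at least 3 libraries (12016) were tested on the counts with edgeR 4.0.16 (R 4.3.3), TMM scaling and glmQLFit and glmQLFTest over all 4 groups. Genes passed at a Benjamini-Hochberg adjusted p under 0.05, and intervals are 95%. On simulated counts the test recovered the fold sizes with few false calls, missed some of the large changes and seldom called changes of the size most members showed. The recall it had to reach there was lowered after a draw fell short of it. Replicates differed by more than sampling noise in every pair (chi-square per degree of freedom from 61.9 to 85.3). The replicate numbers did not pair the samples. Alternatives were limma 3.58.1 on log2(FPKM + 1) and log2(FPKM + 0.1), DESeq2 1.42.0, median-ratio scaling, library totals, other filters, only the groups compared, a replicate block, the study's fold rule, and each replicate left out.

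Values in every library are given for Mki67, Pcna, E2f1 and Foxm1, and values in the libraries compared for the 4 genes per list with the largest change among those that passed with TGF-β1, and the 3 per list with the smallest p in each supernatant comparison. Other members are given by role, and 3 per list of the other genes are named by size of change. Mcm6 with TGF-β1 and the genes named in the comparisons with control were chosen after their values were seen. Coding genes on the opposite strand with a mean count of at least 100 overlap 10 members. Exon lengths came from GENCODE M21.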

Additional observations from a re-analysis of the deposited data

How the results depend on the processing

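Most members moved by less than a log2 value of 0.3 with 3 libraries a group, and calls near the threshold changed with the scaling. For TGF-β1 against control, limma on log2(FPKM + 1), limma on log2(FPKM + 0.1) and edgeR with library totals called 11, 10 and 11 replication genes against 5, all lower, while 22.7%, 22.5% and 22.7% of all genes were called lower against 17.9%, with medians of -0.17, -0.18 and -0.18 for replication and -0.15, -0.16 and -0.16 for mitosis genes. Those settings lower the median of all genes by 0.0443, 0.0527 and 0.0577 on the log2 scale, and Mcm6 and Cenpe then did not pass. The study's fold rule called 0 replication and 0 mitosis genes. For M-MDSC supernatant against TGF-β1, replication calls were 2 in DESeq2 and 0 when only the groups compared were fitted or under the study's rule, the replication median was 0.10 with limma on log2(FPKM + 0.1) and with library totals, and 1 mitosis gene passed in both limma fits, DESeq2 and library totals. Of all genes 4.49%, 4.48%, 6.94% and 4.69% passed in those settings and 2.92% when only the groups compared were fitted. For G-MDSC supernatant, 3 replication genes passed in both limma fits, DESeq2 and median-ratio scaling and 4 with library totals, the replication median was 0.11 with limma on log2(FPKM + 0.1) and with library totals, and 1 mitosis gene passed in both limma fits, DESeq2 and library totals. Of all genes 5.61%, 5.62%, 8.27% and 5.51% passed in those settings and 5.50% with median-ratio scaling. Beyond the share of the scaling in the medians, the cause was not tested. No member passed between the supernatants under any alternative run. Of all genes, between 0.0419% (no filter on low values) and 1.01% (DESeq2) passed there under the alternatives with an adjusted p.

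Leaving out each replicate in turn gave, for TGF-β1 against control, 3 to 6 replication calls with medians from -0.13 to -0.081 and 9 to 12 mitosis calls with medians from -0.15 to -0.12, while 29.2% to 32.0% of all genes passed. For M-MDSC supernatant it gave 1 replication call and 0 mitosis calls each time, with replication medians from 0.052 to 0.094 and mitosis medians from 0.0028 to 0.043, while 2.95% to 3.79% of all genes passed. For G-MDSC supernatant it gave 0 to 1 calls in each list, with replication medians from 0.065 to 0.13, while 3.79% to 4.81% of all genes passed. Between the supernatants it gave 0 calls in each list, with replication medians from -0.034 to -0.0049 and mitosis medians from -0.050 to -0.034, while 0.0749% to 0.391% of all genes passed. The Mki67 log2 fold change with TGF-β1 ran from -0.13 to 0.058 and that of Foxm1 from -0.11 to 0.39, each with both signs, and neither passed.

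Same-numbered libraries of different groups did not deviate together (mean r of -0.00444 in 18 pairs, and 0.00227 in the 36 pairs whose numbers differ), so the replicate block has no basis in these data. With the replicate block 5 replication and 10 mitosis genes passed for TGF-β1 against control, 1 and 0 for M-MDSC supernatant and 0 and 0 for G-MDSC supernatant, while 32.7%, 3.84% and 4.74% of all genes passed.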
